A study of Mus musculus with 4 samples.

Results

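The genes described here are 46 genes of DNA replication and the G1/S transition, read in the RNA of B16 cells, an established mouse melanoma cell line. They were chosen by name, as rows of the count table whose Ensembl identifier carries one of the listed symbols, and are 46 of 53465 rows. All 46 passed the filter on low counts and are among 13664 genes tested. The series compares 2 control libraries with 2 libraries of cells treated for 4 h with EM-plasma, labelled as EMs-treated plasma, where EMs are exosome-mimetic nanovesicles. The labels do not say what kind of plasma it was, what the controls received or when they were collected, and they name no genotype or clone. Nothing states that the libraries came from separate cultures, so each p-value measures only the spread between these libraries, which may be technical. Reads per library ran from 46295133 to 49367932. All 7 melanocyte markers checked were present, with a summed level of 10973 to 11306 CPM, the reads of a gene per library total scaled to one standard depth. Of 24 markers of leukocytes, red cells, platelets, endothelium, fibroblasts and epithelium, 13 had 0 reads in every library, and the sum of all 24 was 4.97 to 6.58 CPM.

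Before S phase the origin recognition complex (ORC), CDC6 and CDT1 load the ring-shaped MCM helicase onto chromatin, a step called licensing. CDC45 and GINS then activate the helicase, DNA polymerase alpha with primase starts each strand, and polymerases epsilon and delta extend it on the sliding clamp PCNA. E2F transcription factors, released when cyclin E and CDK2 complete the inactivation of RB, raise the transcription of most of these genes as cells leave G1. In bulk RNA, fewer cells in S phase and less transcript per cell cannot be told apart.

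Promoters of these genes are known for E2F sites, so the letters of that site were looked up in RefSeq start-site windows on GRCm38.p6, from 250 bases before to 50 bases after each start. The motif was searched on both strands as TTTCCCGC or TTTCGCGC or TTTGCCGC or TTTGGCGC, with overlapping matches counted separately. Of 38 members that had a window, 16 (42.1%) held a match, against 704 of 27025 genes with a window (2.60%), and over single windows 744 of 32851 (2.26%). Of the other genes of the pathway described further on, 14 of 50 with a window (28.0%) held a match, and of 22 mitosis genes 1 did (4.54%). The 4 stretches below lie before the start site and are shown because they come from members whose values are given in detail: Pola1 and Uhrf1 were lower in treated cells, while Mcm5 and Mcm6 are subunits of 1 helicase. Capitals mark the matched letters, on the strand of the gene.
Pola1: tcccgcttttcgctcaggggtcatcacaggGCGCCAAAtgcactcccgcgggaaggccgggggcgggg
Uhrf1: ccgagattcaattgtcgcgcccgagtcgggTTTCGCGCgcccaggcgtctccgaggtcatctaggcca
Mcm5: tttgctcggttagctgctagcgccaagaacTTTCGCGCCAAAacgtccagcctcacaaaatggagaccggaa
Mcm6: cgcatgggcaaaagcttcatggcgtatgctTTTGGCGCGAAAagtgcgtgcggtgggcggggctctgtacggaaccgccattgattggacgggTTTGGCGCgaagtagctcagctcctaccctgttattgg

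The stretches are chrX:93632256-93632323 on the minus strand for Pola1, chr17:56304098-56304165 on the plus strand for Uhrf1, chr8:75109326-75109397 on the plus strand for Mcm5 and chr1:128359715-128359845 on the minus strand for Mcm6. The Uhrf1 stretch precedes the second of its listed starts and is intronic to the longer Uhrf1 transcripts, and the others lie outside annotated genes. In Mcm5 and in the first block of Mcm6, 2 matches on opposite strands overlap. The 16 members with a match had a median log2 fold change of -0.077, the 22 with a window and no match had -0.070, and 2 genes in each of these groups were called lower. The remaining 8 members, called Mcm4 and Prim2 among them, had no window, and the difference between the groups was not tested.

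In treated cells 6 of the 46 genes fell and 0 rose: Mcm4, Pola1, Prim2, Pcna, Rpa3 and Uhrf1. Of these Pcna fell by 9.88%, the least, and Rpa3 fell by 17.7%, the most. A gene was called changed at an adjusted p below 0.05 in edgeR's quasi-likelihood test over all tested genes. By that rule 6.21% of all tested genes were called, 2.88% lower and 3.34% higher. The 13.0% of members called lower lies above that share, but the members were listed with earlier results of these data known. At a share of 3.34% few calls would fall among 46 genes, so the 0 called higher is not read as a result. At an unadjusted p below 0.05, 14 members (30.4%) were lower, against 9.84% of all tested genes. By the same rule 0 members were higher, against 1326 of 13664 genes. DESeq2 called 7 members lower (15.2%) and 0 higher, against 2.46% and 2.03% of the 12171 genes to which it gave an adjusted p. Its 7 were Lig1, Mcm7 and 5 of the 6 named above, without Prim2. The median log2 fold change over the members was -0.075, a median change of -5.10%, against -0.0027 over all tested genes. Of the 46 members 39 lay below 0 (50.9% of all tested genes did), and in 28 both treated libraries were below both controls (24.8% of all tested genes). In 0 members were both treated libraries above both controls, against 3322 of the 13664 tested genes. In 18 members the groups overlapped, against 6956 of the tested genes.

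Reads from the 46 genes made up 0.756% and 0.755% of control 1 and control 2 and 0.711% and 0.715% of EM-plasma 1 and EM-plasma 2. Set against its mean control level, the median member was at -0.090 on the log2 scale in EM-plasma 1 and at -0.061 in EM-plasma 2. The controls were at -0.0064 and 0.0064, which mirror each other because the reference is their own mean. The shift of the median was therefore seen in both treated libraries and exceeded the distance between the control medians. A median hides differences of single genes that go opposite ways. Between control 1 and control 2, Pold1 was at 133 and 115 CPM and Orc6 at 57.7 and 64.4 CPM. The members are more abundant than most genes: their median control level was 107.5 CPM against 31.1 CPM over all tested genes, and the median standard error of their log2 fold changes was 0.053 against 0.070. A smaller error makes small differences easier to call, and its part in the share of members called was not tested.

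**Figure D1:**
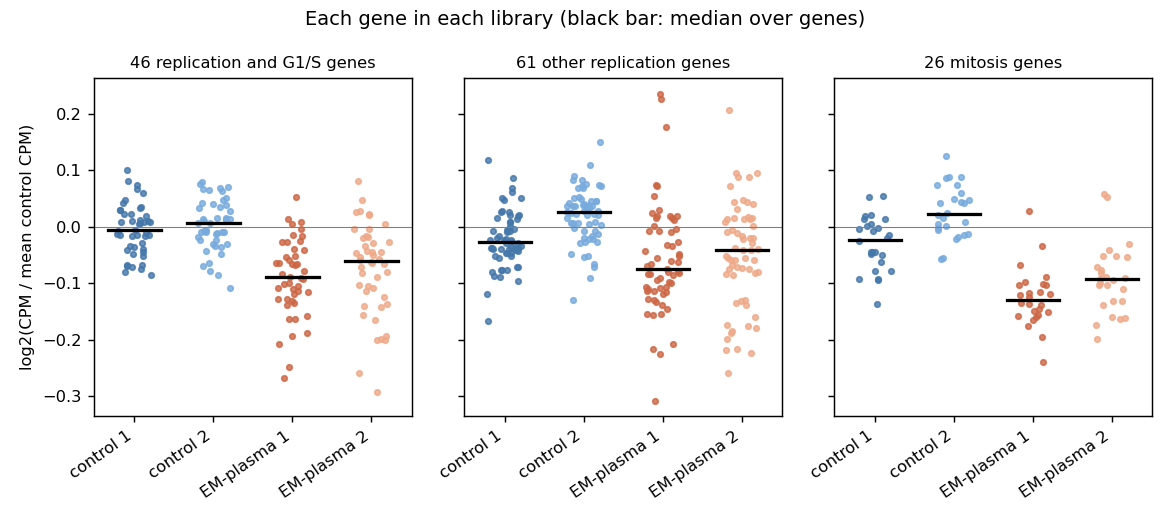
Each point is 1 gene in 1 library, as log2 of its CPM over its mean control CPM, for the 46 replication and G1/S genes, 61 other replication genes and 26 mitosis genes, with the median over genes as a black bar. In the left panel the bars of both EM-plasma libraries (-0.090 and -0.061) lie below those of both controls.

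**Figure D2:**
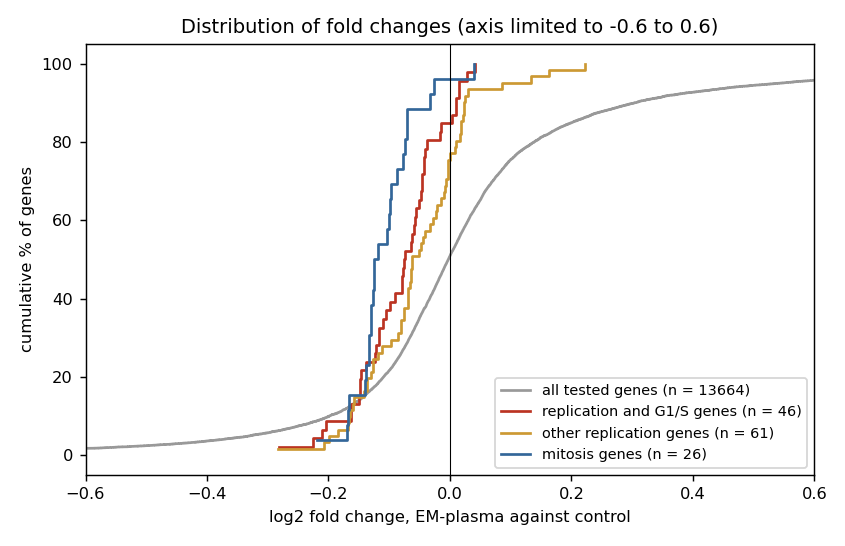
Cumulative share of genes, in percent, against the log2 fold change of EM-plasma against control, for the 46 members, the other replication genes, the mitosis genes and all 13664 tested genes. The members' curve reaches 84.8% at 0 and that of all genes 50.9%, while the members span only -0.28 to 0.040.

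Among the licensing genes, 1 of 10 fell and 0 rose, with a median log2 fold change of -0.093. Mcm4 (chromosome 16, 15623897 to 15637400, ENSMUSG00000022673), a subunit of the helicase, was at 227 and 238 CPM in the controls and 212 and 203 CPM in the treated libraries. Both treated values lay below both controls, and Mcm4 fell by 10.6% (log2 fold change -0.16, SE 0.047, adjusted p = 0.0343). The helicase is a ring of MCM2 to MCM7, and the genes of all 6 subunits had a log2 fold change below 0, with a median of -0.13. Mcm6 was at 371 and 399 CPM in controls and 336.5 and 358 CPM in treated cells (-0.15, SE 0.046, adjusted p = 0.0513). Mcm7 was at 266 and 263 CPM against 241 and 240 CPM (-0.14, SE 0.044, adjusted p = 0.0591). Mcm2, the most abundant member of the whole set in CPM, was at 629 and 604 CPM against 568 and 570 CPM (-0.12, SE 0.041, adjusted p = 0.0891). In these 3 subunits the groups did not overlap, yet none passed the threshold in edgeR. DESeq2 called Mcm7 lower, but not Mcm6 or Mcm2.

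Mcm3 was at 356 and 351 CPM in controls and 334 and 337 CPM in treated cells, a log2 fold change of -0.077 (adjusted p = 0.330). Mcm5 was at 245 and 231 CPM against 227 and 234 CPM, so its groups overlapped (-0.042, 95% interval -0.14 to 0.053, adjusted p = 0.673). The genes of the loading factors upstream of the ring did not pass the threshold. Cdc6, the ATPase that works with ORC to load MCM, had a log2 fold change of -0.11 (adjusted p = 0.276), and Cdt1, which brings MCM to the origin, had -0.051 (adjusted p = 0.647). The ORC subunit gene Orc6 had -0.074 and Orc1, the only licensing gene above 0, had 0.040 (adjusted p = 0.560 and 0.804), and the groups of Cdt1, Orc6 and Orc1 overlapped.

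Helicase activation genes showed 0 of 6 called in either direction, and a median log2 fold change of -0.031. DESeq2 called 0 of them too, and 0 had a p below 0.05 before adjustment. With 6.21% of all tested genes called, and 9.84% lower before adjustment, few would fall among 6 genes. These 0 counts are therefore not read as a result. Mcm10, a scaffold that helps the helicase fire, was the most abundant of them, at 142 and 137 CPM in controls and 138 and 138 CPM in treated cells (95% interval -0.12 to 0.083, adjusted p = 0.899). Gins2 had the largest difference of the 6, at 30.4 and 27.7 CPM against 26.9 and 26.4 CPM (-0.12, SE 0.072, adjusted p = 0.361). Exons of Gse1, on the opposite strand, cover 67.3% of the exon bases of Gins2. The strand setting of the counting is not given, so how reads in the overlap were assigned is not known. Gins3 and Gins4 lay slightly above 0 (0.028 and 0.014) and Gins1 and Cdc45 below (-0.046 and -0.090), with adjusted p from 0.412 to 0.929. The groups of Gins1 and Cdc45 did not overlap, those of Gins3 and Gins4 did.

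Of 9 polymerase genes 2 fell and 0 rose, and both belong to the polymerase alpha-primase complex that starts each DNA strand. Pola1, its catalytic polymerase subunit (chromosome X, 93304767 to 93632155, ENSMUSG00000006678), was at 116 and 127 CPM in controls and 102 and 106 CPM in treated cells. It fell by 14.4% (log2 fold change -0.22, SE 0.054, adjusted p = 0.00971), with no overlap between groups. Prim2, the large primase subunit (chromosome 1, 33453810 to 33669795, ENSMUSG00000026134), was at 62.5 and 68.7 CPM against 58.6 and 54.8 CPM. Prim2 fell by 13.6% (-0.21, SE 0.062, adjusted p = 0.0395), and DESeq2 did not call it (adjusted p = 0.0728). The other subunits of this complex did not pass: Prim1, the catalytic primase, had a log2 fold change of -0.11 and overlapping groups (adjusted p = 0.359), and Pola2, the accessory subunit, had 0.0092 (95% interval -0.11 to 0.13).

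The extending polymerases had no called member, and a difference from polymerase alpha-primase was not tested. Pold1, the catalytic subunit of polymerase delta and the most abundant polymerase gene in CPM over all 4 libraries, was at 133 and 115 CPM in controls and 124 and 126 CPM in treated cells, so the treated values lay between the controls (adjusted p = 0.921). Its accessory subunits Pold2 and Pold3 had log2 fold changes of -0.15 and -0.047 (adjusted p = 0.132 and 0.728). Pole, the catalytic subunit of polymerase epsilon, had -0.038 and its accessory subunit Pole2 had -0.16 (adjusted p = 0.733 and 0.202). In Pold2, Pold3, Pole and Pole2 both treated libraries were below both controls, as in 24.8% of all tested genes. Before adjustment, edgeR gave a p of 0.0157 for Pold2 and 0.0333 for Pole2.

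Of 11 genes of the clamp, its loader and lagging-strand work 2 fell and 0 rose, with a median log2 fold change of -0.079. Pcna, the sliding clamp (chromosome 2, 132249162 to 132253314, ENSMUSG00000027342), was at 329 and 336 CPM in controls and 298 and 301 CPM in treated cells. Pcna fell by 9.88% (log2 fold change -0.15, SE 0.043, adjusted p = 0.0330), and both groups were tight. Rpa3, the smallest subunit of the single-strand binding protein RPA (chromosome 6, 8255936 to 8259173, ENSMUSG00000012483), was at 35.9 and 36.6 CPM against 30.1 and 29.6 CPM. It fell by 17.7%, the largest difference among the 46 genes (-0.28, SE 0.066, adjusted p = 0.00874). The genes of its partner subunits did not pass: Rpa1, which makes most of the DNA contacts, was at 366 and 373 CPM against 346 and 353 CPM (-0.079, adjusted p = 0.315). Rpa2 lay at 0.0038 on the log2 scale (adjusted p = 0.982, 95% interval -0.11 to 0.12).

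Lig1, the ligase that seals lagging-strand fragments, was at 196 and 194 CPM in controls and 177 and 175 CPM in treated cells, with no overlap (-0.15, SE 0.046, adjusted p = 0.0533). DESeq2 called Lig1 lower. Fen1, the nuclease that trims flaps on the same fragments, had -0.042 and overlapping groups (adjusted p = 0.700). Exons of Gm10143 on the opposite strand cover 78.8% of those of Fen1. Gm10143 had 3 to 11 reads per library and Fen1 had 6177 to 6932. As for Gins2, how reads in the overlap were assigned is not known. The loader that opens the clamp is RFC, and the large subunit gene Rfc1 had a log2 fold change of -0.12 (adjusted p = 0.156). The small subunit genes Rfc2, Rfc3, Rfc4 and Rfc5 ran from -0.099 to 0.0099, with adjusted p from 0.277 to 0.946.

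Nucleotide supply showed 0 of 3 genes called, with 0 below a p of 0.05 before adjustment. DESeq2 called 0 as well. At a share of 6.21% of all tested genes called, few calls would fall among 3 genes, so these 0 counts are not read as a result. Each of the 3 had a log2 fold change below 0. Rrm1, the large subunit of ribonucleotide reductase, was at 500.4 and 529 CPM in controls and 480 and 495 CPM in treated cells (-0.079, SE 0.042, adjusted p = 0.317). Rrm2, the subunit that limits the enzyme's activity in S phase, had -0.043 (95% interval -0.13 to 0.045), and Tyms, which makes thymidylate, had -0.048 (-0.15 to 0.050). At this precision a fall in Rrm2 of the size seen in Uhrf1 lies outside its interval.

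Of 4 genes that copy chromatin marks and nucleosomes behind the fork 1 fell and 0 rose. Uhrf1, which reads hemimethylated DNA and recruits DNMT1 (chromosome 17, 56303321 to 56323486, ENSMUSG00000001228), was at 442 and 422 CPM in controls and 374 and 376 CPM in treated cells. Uhrf1 fell by 13.2% (log2 fold change -0.20, SE 0.043, adjusted p = 0.00291), the smallest adjusted p of the 46 genes. Dnmt1, the maintenance DNA methyltransferase it recruits, was at 447 and 425 CPM against 410 and 417 CPM (-0.076, SE 0.043, adjusted p = 0.338). The histone chaperone genes Chaf1a and Chaf1b had -0.056 and -0.065 (adjusted p = 0.579 and 0.542), and exons of Ubxn6 on the opposite strand cover 52.5% of those of Chaf1a.

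Of the G1/S regulators 0 of 3 were called, E2f1 alone had a p below 0.05 before adjustment, and DESeq2 called 0. With 6.21% of all tested genes called, 0 of 3 is not read as a result either. E2f1, the transcription factor of this programme, was at 88.7 and 81.3 CPM in controls and 78.8 and 78.0 CPM in treated cells (-0.12, SE 0.057, adjusted p = 0.252). The cyclin E gene Ccne1 was at 93.4 and 91.0 CPM against 88.5 and 88.5 CPM (-0.059, adjusted p = 0.591). Ccne2, the other cyclin E gene, had a log2 fold change of -0.014 and overlapping groups (adjusted p = 0.937).

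**Figure D3:**
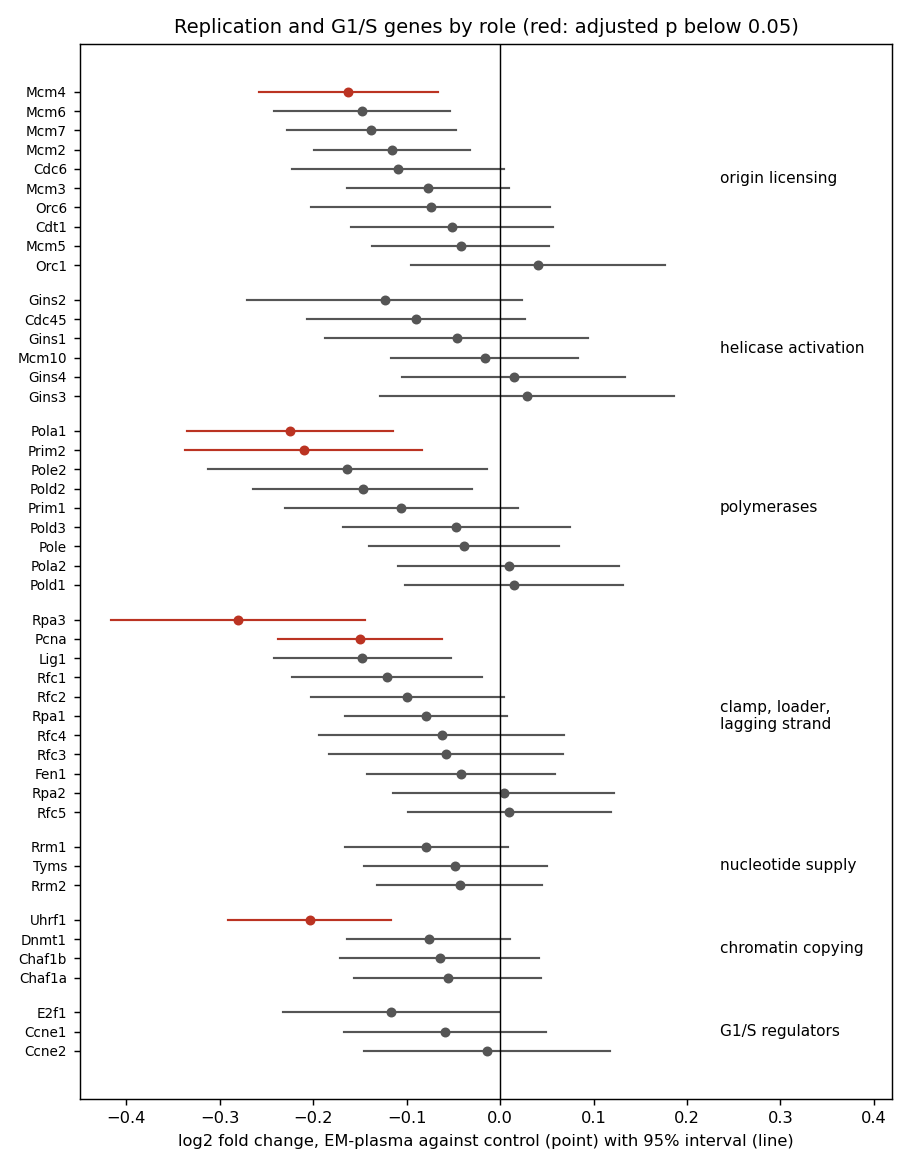
Log2 fold change of EM-plasma against control (points) with 95% intervals (lines) for all 46 genes in 7 role groups, with called genes in red. The 6 called genes are spread over 4 groups, and the interval of Rpa3 reaches furthest down, to -0.42.

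**Figure D4:**
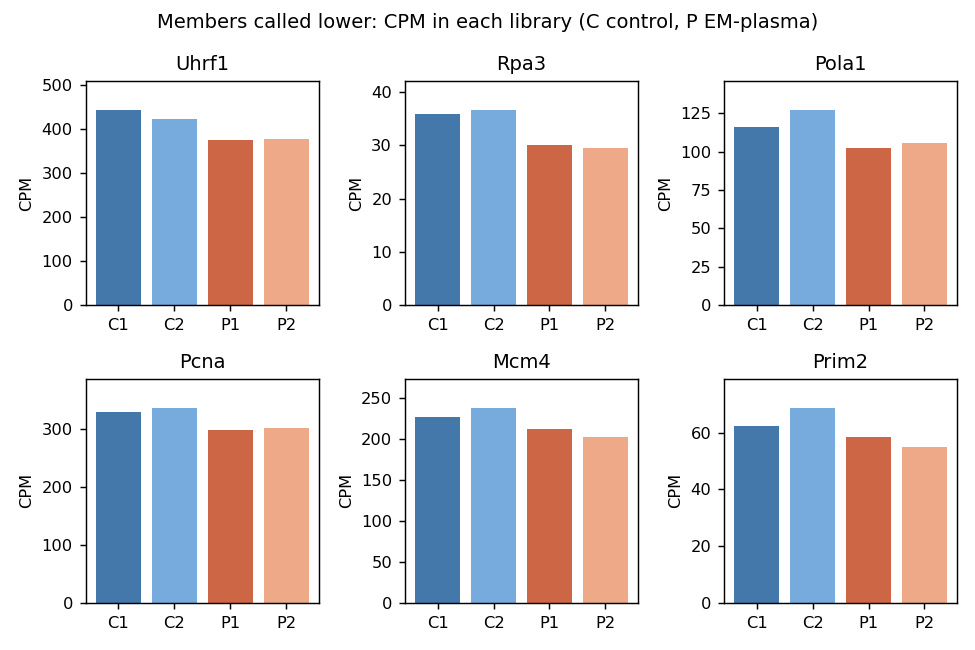
CPM of the 6 called genes in each of the 4 libraries, on axes that start at 0. In each gene both EM-plasma bars are lower than both control bars, as for Rpa3, which fell by 17.7%.

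For the 40 members that were not called, the 95% intervals ran no lower than -0.31 (Pole2) and no higher than 0.19 (Gins3) on the log2 scale. A change beyond those sizes lies outside the interval of each of these 40 genes. Of the 7 members with a log2 fold change above 0 (Orc1, Gins3, Gins4, Pola2, Pold1, Rfc5 and Rpa2), each had overlapping groups.

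Levels between genes were compared per kilobase of annotated exon, which counts every isoform's exons and so understates genes with long rare isoforms. Rrm2 and Pcna were the highest members on this scale, at 140 ± 5.40 and 139 ± 1.96 CPM per kb in controls (SD, n = 2), and Uhrf1 followed at 101 ± 3.30. The first pair of these did not differ beyond their spread. Within the MCM ring, control levels ran from 59.5 ± 2.46 CPM per kb for Mcm5 to 94.3 ± 0.875 for Mcm3. Mcm4, Mcm5 and Mcm7 formed the lower end of that range and Mcm2, Mcm3 and Mcm6 the upper end, in controls and in treated cells alike. GINS was uneven on this scale: Gins4 was at 42.3 ± 0.357 CPM per kb and Gins2 at 7.09 ± 0.471, though the proteins act as 1 complex. Much of that gap comes from the length used, 1349 bases for Gins4 and 4097 for Gins2. Before division by length, their control means were 57.0 and 29.1 CPM. Gins1 and Gins3 were at 19.6 ± 0.310 and 8.19 ± 0.349. Exons of Gse1 on the opposite strand cover 67.3% of the Gins2 exon bases, so the Gins2 level may depend on how reads there were counted. In RPA, Rpa1 was at 66.2 ± 0.934 CPM per kb in controls, and Rpa3 went from 31.9 ± 0.453 to 26.3 ± 0.332 in treated cells while Rpa2 was at 22.2 ± 0.149 and 22.3 ± 0.953.

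**Figure D5:**
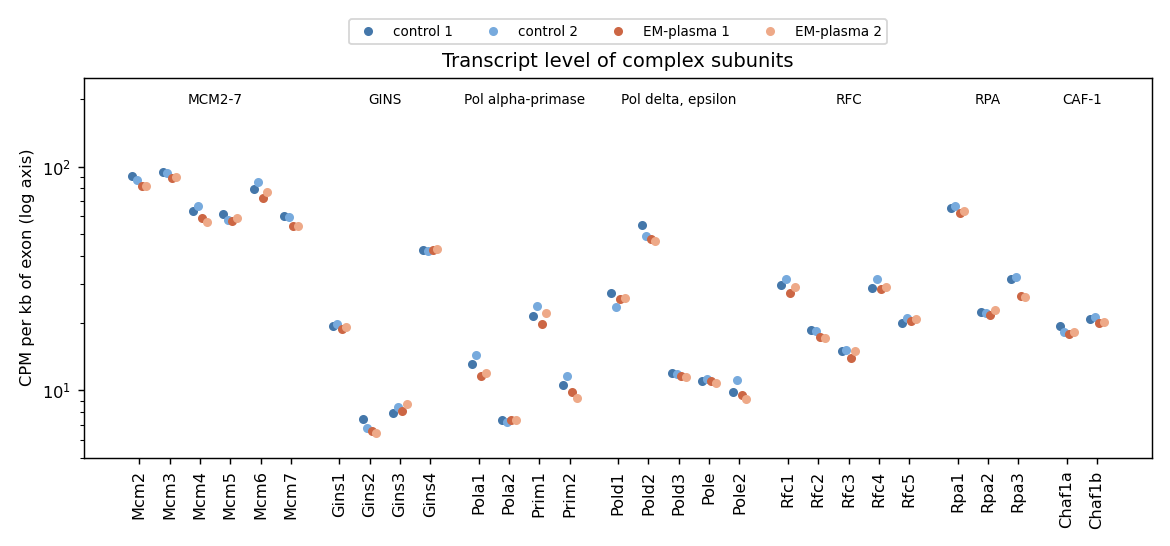
CPM per kb of exon, on a log axis, for the subunit genes of 7 groups of replication proteins in each library. The gap between Gins4, at 42.3 in controls, and Gins2, at 7.09, exceeds the distance between control and EM-plasma points of either gene. Exons of Gse1 on the opposite strand cover 67.3% of those of Gins2, which may affect its level. The lengths used were 1349 bases for Gins4 and 4097 for Gins2.

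Among 61 other genes of the pathway, 2 fell and 0 rose, with 47 below 0 and a median log2 fold change of -0.062. The 3.28% called lower is close to the 2.88% of all tested genes. Against the control mean, the median of these genes was at -0.026 and 0.026 in the controls and at -0.075 and -0.042 in EM-plasma 1 and 2, so EM-plasma 2 lay nearer to control 1 than the controls to each other. Pclaf, a PCNA-binding protein of the fork, was at 177 and 196 CPM in controls and 151 and 156 CPM in treated cells, and fell by 17.8% (-0.28, SE 0.051, adjusted p = 0.000632). Nasp, a histone chaperone of S phase, was at 157 and 179 CPM against 143 and 149 CPM and fell by 12.9% (-0.20, SE 0.054, adjusted p = 0.0232). The call of Pclaf ended without control 2 or EM-plasma 1 (adjusted p = 0.105 and 0.0909), and that of Nasp without control 2, EM-plasma 1 or EM-plasma 2 (0.291, 0.468 and 0.203). At an unadjusted p below 0.05, 14 of the 61 were lower and 3 higher, and DESeq2 called 0 higher. By that unadjusted rule 9.84% of all tested genes were lower and 1326 of 13664 higher. Cdc7, the kinase that triggers origin firing, was the furthest above 0 of these 61 genes and is named after its values were seen. It was at 23.6 and 25.1 CPM in controls and 28.7 and 28.1 CPM in treated cells (0.22, SE 0.072, adjusted p = 0.0607), and its activating partner Dbf4 had -0.12 (adjusted p = 0.178).

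Of 26 mitosis genes, 3 fell (11.5%, against 2.88% of all tested genes) and 0 rose. In all, 25 lay below 0 (96.2%, against 50.9% of all tested genes) and the median was -0.12. A lower level was thus not confined to replication genes. Mki67, a nuclear protein of cycling cells, fell by 11.0% (960 and 1029 CPM against 880 and 890 CPM, adjusted p = 0.0101), the B-type cyclin gene Ccnb2 by 11.1% (adjusted p = 0.0455) and the kinetochore gene Nuf2 by 14.1% (adjusted p = 0.0493). All 3 calls ended without control 2, EM-plasma 1 or EM-plasma 2 (adjusted p from 0.132 to 0.527), and that of Ccnb2 also without control 1 (0.0790). Whether the replication and mitosis genes differ in the size of their shift was not tested.

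The direction varied less between settings than the calls did. Except for the fits without a library, the settings use the same 4 libraries and can move a fold change only slightly. Their shared direction is therefore not a set of separate checks. Across 13 other settings, between 39 and 42 members lay below 0 and the median stayed between -0.091 and -0.062, while members called lower numbered from 0 to 16. Without control 1 the calls of Mcm4 and Prim2 ended (adjusted p = 0.0519 and 0.0558), and without control 2 those of Mcm4, Pcna, Pola1, Prim2 and Rpa3 did (adjusted p from 0.134 to 0.330), while Uhrf1 passed (0.0486). Without EM-plasma 1 and without EM-plasma 2 in turn, 0 members were called, and the 6 genes had adjusted p from 0.154 to 0.632. In those fits 5 and 6 members (10.9% and 13.0%) were lower at an unadjusted p below 0.05, against 4.47% and 4.45% of all tested genes. Each fit without a library leaves 1 library in an arm, so its spread comes from the other pair alone and the lone library is assumed to vary like that pair. After a trend with transcript GC content was removed in each library, an alternative chosen after seeing the data, 16 members were called lower and 0 higher, against 6.56% of all tested genes called lower.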

How the data were processed

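Poly(A) RNA of 4 libraries was sequenced after a stranded Illumina preparation, per the labels' protocols. The submitters' processing notes name CASAVA, TopHat2 2.1.1, HTSeq and edgeR on GRCm38, with no role or order; for the annotation release and strand setting, the sources used here give nothing. The authors deposited whole-number counts per Ensembl gene, and per-sample tables of a scaled signal. Each deposited signal equalled the count times 1 constant per library and served only to check the columns. Symbols were found for all but 191 of 53465 rows, which held 0.0459% to 0.0526% of the reads. Coordinates and exon lengths are from GENCODE M21 (GRCm38), and promoter sequences from RefSeq (GRCm38.p6).

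Genes passing filterByExpr were scaled by TMM and tested with edgeR 4.0.16 (R 4.3.3), quasi-likelihood with the legacy dispersion, on group alone, two-sided, with p-values adjusted over all 13664 by Benjamini-Hochberg. The code was tested on simulated data. A standard error is the size of the log2 fold change over the root of its F statistic, and 95% intervals use the total degrees of freedom. The biological coefficient of variation was 4.00%. Alternatives were RLE and upper quartile scaling, no filter, a mean count of at least 100, DESeq2 1.42.0, the newer dispersion, the replicate block, each library left out, and, added after seeing the data, GC and length trends removed. Members, role groups and gene lists were chosen with earlier results of these data known. Named are called members, the most abundant and most different member of each role group, Mcm2 to Mcm7, and called genes of the other 2 lists; further members were named after their values were seen. Errors and intervals include counting noise and differences between these libraries, and nothing else.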

Additional observations from a re-analysis of the deposited data

How the results depend on the processing

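In all 13 other settings 0 members were called higher. Those called lower numbered 6 in the reported fit, 0 with no filter on low counts, 12 with the replicate block and 16 with the GC trend removed, and 0 to 4 with 1 library left out. All tested genes called higher and lower numbered 13 and 1 with no filter, where the fit's total degrees of freedom were 5.36 against 27.5, 832 and 851 with the replicate block, 821 and 896 with the GC trend removed, and 48 to 258 and 23 to 289 with a library left out. DESeq2 called 247 genes higher. By role, licensing genes called lower were 2 with RLE scaling, with a mean count of 100 or with DESeq2, 3 with the length trend removed, 4 with the replicate block, 5 with the GC trend removed, and 0 with no filter and with each library left out. Polymerase genes were 0 with no filter, 1 with DESeq2 and 0 to 1 with a library left out. Clamp and lagging-strand genes were 0 with no filter, 4 with the replicate block, 5 with the GC trend removed and 0 to 2 with a library left out. Chromatin genes were 0 with no filter, 2 with the GC trend removed and 0 to 1 with a library left out, and G1/S regulators 1 with the GC trend removed. Of the other pathway genes, 1 was called higher with upper quartile scaling, a mean count of 100, the replicate block or the GC trend removed. Those called lower were 0 with no filter, 9 with the replicate block, 6 with the GC trend removed and 0 to 2 with a library left out. Mitosis genes called lower were 1 with upper quartile scaling, 0 with no filter, 13 with the replicate block, 10 with the GC trend removed and 0 to 9 with a library left out. The total degrees of freedom were 13664 with the replicate block, and 5.71 and 5.27 without control 1 and control 2. They were 14081 and 14097 without EM-plasma 1 and EM-plasma 2. The degrees of freedom are given as a description, and the cause of these differences was not tested.

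The labels do not say that a shared replicate number marks a shared culture. The differences of replicate 1 from 2 in the 2 groups correlated at 0.078 over tested genes and 0.289 over the 46 members, and the block is not used in the report. Leaving out a control gave a coefficient of variation of 2.44%, and leaving out an EM-plasma library 5.01%, so these fits differ in their spread as well as in their libraries. With 2 libraries per group, differences near 10% sit at the limit of what was called.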
